A study of Mus musculus with 2 samples.

Results

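The 4 genes described here, Grb10, Inpp5f, Slc38a4 and Trappc9, are imprinted genes of the mouse. In Grb10, Inpp5f and Trappc9 a region that controls imprinting lies inside the transcribed unit, and the known region of Slc38a4 lies at its own promoter. The members are the CpGs of the 4 genes read at least 5 times in both libraries, between 2 kb upstream of the 5' end of each gene and its end, in mm9 coordinates of the GENCODE annotation. These were 1211 CpG cytosines of 2654195 in the whole series, with each strand counted on its own. Grb10 held 407 of them, Inpp5f 111, Slc38a4 119 and Trappc9 574. Membership follows from the gene name, the position and the coverage of a CpG, and not from its methylation.

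The study asked how far DNA methylation in the mouse depends on the binding of UHRF1 to histone H3 methylated at lysine 9. UHRF1 binds hemimethylated DNA behind the replication fork and brings the maintenance methyltransferase DNMT1 to it. The KI group was homozygous for the Uhrf1 YP187/188AA knockin mutation, which replaces a tyrosine and a proline of the tandem tudor domain by alanines, in every tissue and under the gene's own promoter. WT mice were of the same strain, C57BL/6 in the labels. In both groups the liver DNA of 3 males, 3 months old, was pooled into 1 library, and the genotype label of the KI sample reads knock out where its title reads KI. DNA was cut with MspI at CCGG sites, short fragments were bisulfite converted and sequenced (reduced representation bisulfite sequencing, RRBS), and a cytosine that stayed unconverted was read as methylated.

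At an imprinted gene, 1 parental copy is expressed and the other is silent. The choice rests on a control region that is methylated on 1 parental copy only, so that a level between the extremes is the usual state of such a region in a tissue, and maintenance of that methylation keeps the memory of parental origin through cell division. Grb10 encodes an adaptor protein that restrains signalling of the insulin and growth factor receptors, and its control region holds the start that neurons use on the paternal copy. Inpp5f encodes an inositol polyphosphate phosphatase, and a shorter imprinted transcript starts at a control region in one of its introns. Slc38a4 encodes an amino acid transporter of liver and placenta. Trappc9 encodes a subunit of a vesicle trafficking complex, and an intron of it holds the noncoding RNA gene Peg13, whose start is the control region. The control regions of Grb10, Inpp5f and Peg13 carry their methylation on the maternal copy, but the copies cannot be told apart in these libraries.

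The control regions were taken by annotation and coverage among CpG islands of the mm9 sequence (at least 200 bases, a GC share of at least 0.5 and an observed to expected CpG ratio of at least 0.6). For Grb10 and Inpp5f it is the island that holds the 5' end of a further transcript, and in Grb10 the one of these with the most shared CpGs. In Grb10 this is chr11:11925414-11926726, over exon 1 of Grb10-001 and Grb10-002, and in Inpp5f it is chr7:135831316-135832223, over exon 1 of Inpp5f-006. The Slc38a4 region is chr15:96884760-96885837, an intronic island that begins within 1 kb of the 5' end, because the island nearest to the 5' end had no shared CpG. It is called the control region of Slc38a4 here for short, and that it is part of the known region was not established. Peg13 is inside Trappc9 in the RefSeq annotation of GRCm38 and is not named in the mm9 annotation, so for Trappc9 the intronic island with the most shared CpGs was used, chr15:72639521-72641169. Whether that island is the Peg13 start could not be checked in mm9.

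The DNA behind the levels is shown for 300 bases of each control region, those with the most measured cytosines, on the strand of the gene. Capitals mark each CpG with a shared cytosine on at least 1 strand. The Grb10 stretch is chr11:11925905-11926204 on the minus strand, that of Inpp5f chr7:135831562-135831861 on the plus strand, that of Slc38a4 chr15:96885533-96885832 on the minus strand, and that of Trappc9 chr15:72640219-72640518 on the minus strand.
Grb10: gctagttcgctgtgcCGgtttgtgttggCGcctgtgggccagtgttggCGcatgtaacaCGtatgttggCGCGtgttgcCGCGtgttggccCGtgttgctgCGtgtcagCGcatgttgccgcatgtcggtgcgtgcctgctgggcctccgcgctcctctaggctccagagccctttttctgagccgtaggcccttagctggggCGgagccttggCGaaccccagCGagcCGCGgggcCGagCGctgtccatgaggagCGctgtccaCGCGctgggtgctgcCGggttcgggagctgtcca
Inpp5f: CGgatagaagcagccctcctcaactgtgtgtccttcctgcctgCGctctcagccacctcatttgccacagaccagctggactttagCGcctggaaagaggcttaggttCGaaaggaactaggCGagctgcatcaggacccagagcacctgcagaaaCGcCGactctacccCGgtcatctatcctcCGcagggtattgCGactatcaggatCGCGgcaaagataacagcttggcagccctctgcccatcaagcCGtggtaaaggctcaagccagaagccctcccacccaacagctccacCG
Slc38a4: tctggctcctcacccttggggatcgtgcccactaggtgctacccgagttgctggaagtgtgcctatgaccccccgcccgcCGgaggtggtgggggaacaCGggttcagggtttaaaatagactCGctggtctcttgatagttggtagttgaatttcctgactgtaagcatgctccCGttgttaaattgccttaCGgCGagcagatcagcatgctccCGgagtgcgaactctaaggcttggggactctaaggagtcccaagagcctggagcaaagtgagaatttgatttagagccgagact
Trappc9: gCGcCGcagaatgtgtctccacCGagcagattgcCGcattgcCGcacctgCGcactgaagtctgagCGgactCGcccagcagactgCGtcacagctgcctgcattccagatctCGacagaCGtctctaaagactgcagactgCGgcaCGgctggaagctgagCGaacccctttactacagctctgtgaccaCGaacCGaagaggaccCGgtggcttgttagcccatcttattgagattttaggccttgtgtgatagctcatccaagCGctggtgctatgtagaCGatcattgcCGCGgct
Of the CpGs in these stretches, 22 of 30 were measured in Grb10, 14 of 14 in Inpp5f, 7 of 13 in Slc38a4 and 21 of 21 in Trappc9. The Grb10 stretch averaged 51.9% in KI and 68.4% in WT over 44 cytosines, and the Trappc9 stretch 69.8% in KI and 76.8% in WT over 41 cytosines. That of Inpp5f averaged 70.3% in KI and 76.0% in WT over 28, and that of Slc38a4 56.3% in KI and 61.4% in WT over 14. The Grb10 stretch was thinly read, at 13 to 18 reads per cytosine in KI and 13 to 23 in WT outside CCGG. A more deeply read fragment of the same region averaged 73.7% in KI and 71.6% in WT.

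With 1 library per genotype there is no spread between animals, and every test on reads compares these 2 libraries. The KI library listed 6452685 CpG cytosines and the WT library 7231934, and the shared ones had a median of 37 reads in each. The intervals given are 95% intervals of counting error only. They take each read at each CpG as independent and are too narrow, since 1 read can span several CpGs and PCR copies cannot be recognised without molecular identifiers. Over all shared CpGs the mean was 42.6% in KI and 45.6% in WT, a change of -2.99 percentage points.

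All 4 control regions had means between 56.3% and 76.0% in both libraries and a lower mean in KI, by 4.81 to 6.74 points, although at 20 or more reads per cytosine in both libraries that of Grb10 was 1.97 points higher in KI. Weighted by reads, the changes were -1.98 points in Grb10, -1.73 in Inpp5f, -3.22 in Slc38a4 and -4.88 in Trappc9. The Grb10 region averaged 60.6% in KI (interval 58.4 to 62.8) and 67.3% in WT (65.3 to 69.3) over 102 cytosines, a change of -6.74 points (-9.74 to -3.75). The Inpp5f region averaged 70.3% in KI (66.8 to 73.7) and 76.0% in WT (73.2 to 78.8) over 28 cytosines, a change of -5.70 points (-10.1 to -1.27). The region of Slc38a4 averaged 56.3% in KI (54.4 to 58.2) and 61.4% in WT (59.4 to 63.4) over 14 cytosines, a change of -5.06 points (-7.80 to -2.32). The Trappc9 region averaged 63.6% in KI (61.3 to 65.8) and 68.4% in WT (66.4 to 70.4) over 57 cytosines, a change of -4.81 points (-7.80 to -1.81). These intervals of KI and WT overlapped slightly for Inpp5f and not for Grb10, Slc38a4 and Trappc9. They are too narrow, as stated above, and the share of all islands without overlap was not counted, so the lack of overlap does not set these regions apart. Relative to WT, the regions lost 10.02% of their level in Grb10, 7.503% in Inpp5f, 8.25% in Slc38a4 and 7.03% in Trappc9.

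A region was called lower or higher in KI only where 2 tests, each two-sided, gave an adjusted p under 0.05. The first was the Cochran-Mantel-Haenszel test, stratified by CpG, and the second Fisher's exact test on summed reads, with p-values adjusted by Benjamini-Hochberg over all islands of at least 5 shared CpGs. Of the 4 control regions, 0 were called lower and 0 higher, where 23.0% of 27062 islands were called lower and 1.71% higher. Among the 6617 islands at 50 to 80% in WT, the range of the control regions, 43.8% were called lower and 0.892% higher. The Slc38a4 region passed the stratified test alone (adjusted p = 0.0394, against 0.1205 by Fisher's exact test), and the Trappc9 region passed Fisher's exact test alone (adjusted p = 0.00115, against 0.0645 by the stratified test). For Grb10 the adjusted p was 0.223 by the stratified test and 0.131 by Fisher's exact test, and for Inpp5f 0.503 and 0.340 in the same order. Unadjusted, Fisher's exact test gave p = 0.0431 for Grb10, 0.148 for Inpp5f, 0.0390 for Slc38a4 and 1.82e-04 for Trappc9. The share of all islands with an unadjusted p under 0.05 was not counted, so these values do not set the regions apart.

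The size of these changes was common among islands with intermediate methylation. The median change of the 6617 islands at 50 to 80% in WT was -4.72 points, and 84.5% of them were lower in KI by any amount. Among these, 32.9% had a larger reduction than the Grb10 region, 41.8% a larger one than Inpp5f, 47.4% a larger one than Slc38a4 and 49.2% a larger one than Trappc9.

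**Figure D1:**
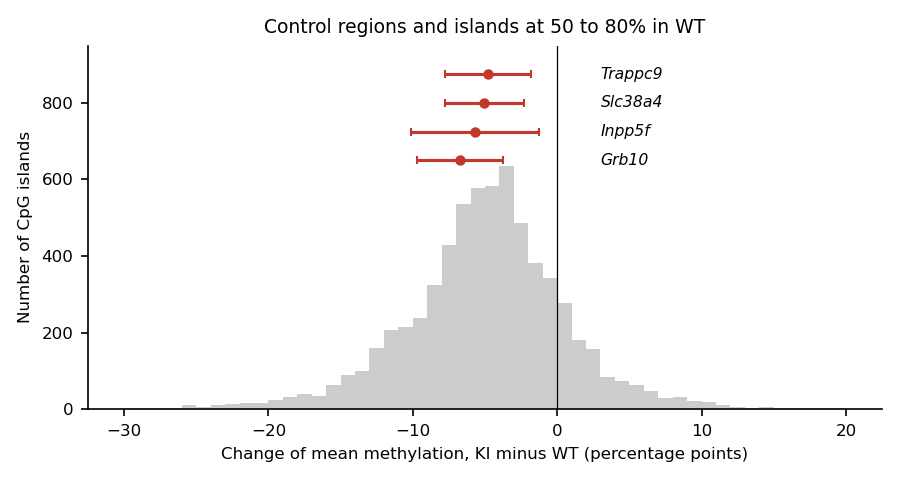
Number of CpG islands at 50 to 80% methylation in WT (grey bars, y axis) by the change of their mean, KI minus WT in percentage points (x axis, steps of 1 point). Red points with bars give the change of the 4 control regions and its 95% interval of counting error, at heights chosen for display. The 4 points lie between -6.74 and -4.81, near the middle of the grey distribution, whose median is -4.72.

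In RRBS the cytosines of a CCGG site meet a filled-in end. At the CpG pairs in CCGG sites of the control regions, the strand with the lower level averaged 0.462% in KI and 0.314% in WT for Grb10, and 6.29% in KI and 2.34% in WT for Trappc9, so that these cytosines pull the regional means down. Outside CCGG sites the levels were 63.7% in KI and 70.8% in WT for Grb10, and 77.4% in KI and 83.8% in WT for Inpp5f. Slc38a4 had 65% in KI and 70.9% in WT on that basis, and Trappc9 70.01% in KI and 75.9% in WT. All 4 regions stayed lower in KI, by 5.84 to 7.14 points. In Inpp5f, 17 of the 22 cytosines in KI and 19 of 22 in WT lay over 70%, so without CCGG sites most of this region was highly methylated in both libraries and its WT mean lay above the 50 to 80% range.

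CpGs between 2 neighbouring CCGG sites are read from the same fragments, and the control regions rested on 10 such fragments with measured CpGs outside CCGG. Of these, 7 had a lower mean in KI and 3 a higher one. The share of all fragments lower in KI was not counted, and 84.5% of islands at 50 to 80% in WT were lower by any amount. In Grb10 the reduction came from 1 fragment of 266 bases, centred 12631 bases from the 5' end, which averaged 54.2% in KI and 71.4% in WT over 40 cytosines. It was covered by 13 to 18 reads per cytosine in KI and 13 to 23 in WT. The fragment of 175 bases next to it in the transcribed direction was read far more often, at 69 to 130 reads per cytosine in KI and 76 to 194 in WT, and averaged 73.7% in KI and 71.6% in WT. A fragment of 269 bases nearer to the 5' end averaged 67.7% in KI and 68.9% in WT with 6 to 13 reads. The deeply read part of the Grb10 region was thus slightly higher in KI, and the reduction stood on the thinly read part. At 20 or more reads in both libraries, the Grb10 region averaged 69.3% in KI and 67.3% in WT over 32 cytosines, a change of 1.97 points, against -10.7 points over the other 70 cytosines.

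Inpp5f showed the same split by depth. Its fragment of 170 bases, with 123 to 149 reads in KI and 168 to 188 in WT, averaged 83.7% in KI and 85.2% in WT. The neighbouring fragment of 128 bases, with 7 to 18 reads in KI and 9 to 16 in WT, averaged 69.8% in KI and 82.1% in WT. Over the 16 cytosines with 20 or more reads in both libraries the Inpp5f region changed by -0.588 points, and over the other 12 by -12.5 points. The Slc38a4 island was measured at 7 of its 61 CpGs, which lie at 1 fragment of 136 bases with 120 to 204 reads in KI and 98 to 157 in WT outside CCGG, so its change of -5.92 points outside CCGG was measured at depth. In Trappc9 the fragment with most CpGs, of 216 bases, averaged 67.7% in KI and 74.0% in WT over 31 cytosines, at 25 to 42 reads in KI and 48 to 63 in WT. A Trappc9 fragment of 135 bases with 89 to 217 reads in KI and 53 to 141 in WT averaged 75.4% in KI and 75.03% in WT over 4 cytosines. The reduction was therefore seen at 20 or more reads in Slc38a4 and Trappc9 and was near 0 or turned in Inpp5f and Grb10. The part of depth in these differences was not tested.

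**Figure D2:**
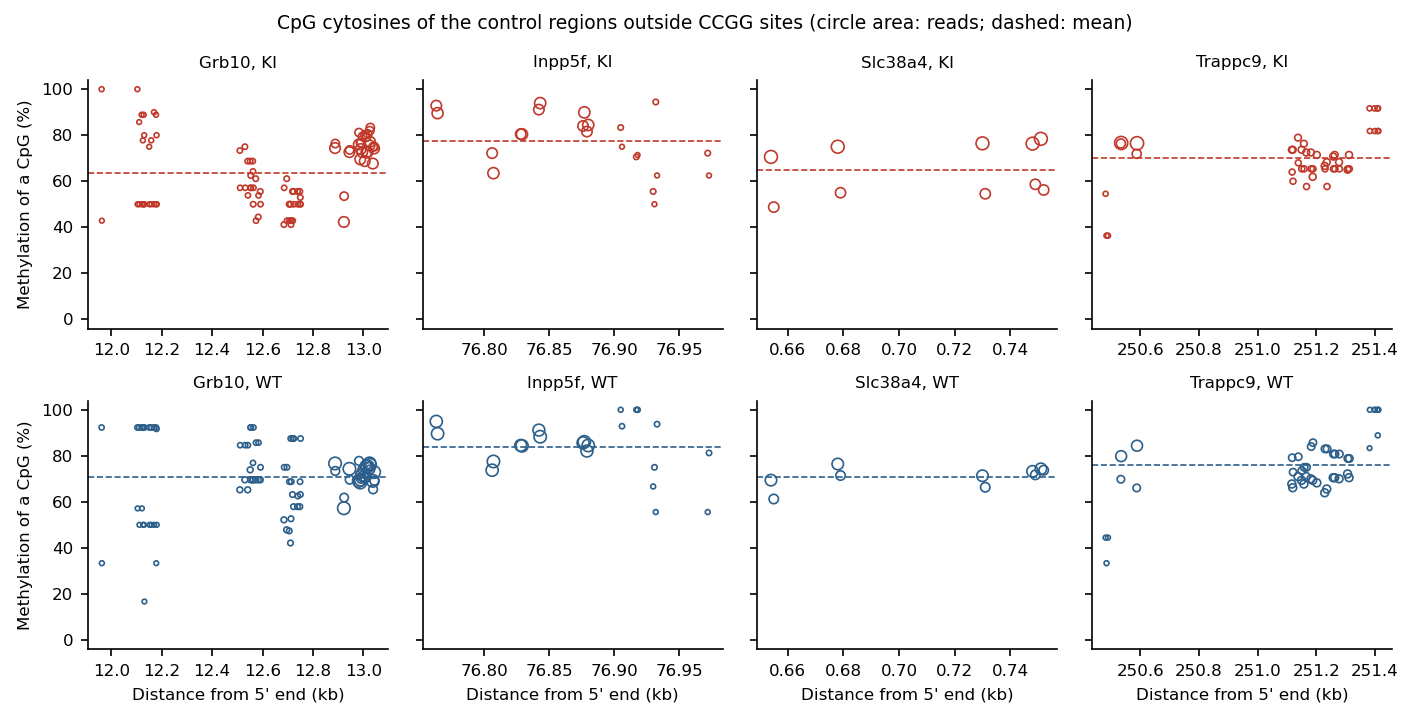
Methylation of single CpG cytosines (%, y axis) of the 4 control regions outside CCGG sites against their distance from the 5' end of the gene in kb (x axis), for KI (upper row, red) and WT (lower row, blue). The area of a circle grows with its reads and dashed lines mark the means, 63.7% in KI and 70.8% in WT for Grb10. The large circles of Grb10 near 13.0 kb lie at like heights in both rows, and the small ones between 12.5 and 12.8 kb lie lower in KI.

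The strands of the control regions did not move alike. In Slc38a4 the 5 cytosines of the top strand (the plus strand of mm9) outside CCGG lay between 48.8% and 58.7% in KI and between 61.2% and 73.7% in WT. Cytosines on 1 strand of a fragment largely share their reads, so these 5 are not separate observations. The 5 on the bottom strand lay between 70.6% and 78.4% in KI and between 69.4% and 76.4% in WT. The mean of the top strand was 54.6% in KI and 68.9% in WT, and that of the bottom strand 75.4% in KI and 73.0% in WT, so the reduction of the Slc38a4 region lay on 1 strand. The 216-base fragment of Trappc9 had 64.1% in KI and 79.4% in WT on the top strand, and 71.03% in KI and 69.0% in WT on the bottom strand. The 266-base fragment of Grb10 had 51.1% in KI and 81.1% in WT on the top strand, and 57.3% in KI and 61.7% in WT on the bottom strand. In all, 7 of 9 top strands and 6 of 10 bottom strands of the fragments of the control regions were lower in KI, and the share over all fragments was not counted. Strands are sequenced as separate reads, and the differences between them were not tested.

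ZFP57, the zinc finger protein that keeps methylation at imprinted control regions in the mouse embryo, binds the methylated hexamer TGCCGC. This hexamer, searched on both strands, was present 4 times in the Grb10 region, 6 times in that of Inpp5f, 0 times in that of Slc38a4 and 5 times in that of Trappc9. In the central 300 bases it was found 2 times in Grb10, 1 time in Inpp5f, 0 times in Slc38a4 and 4 times in Trappc9, where 25.1% of 39586 islands of at least 300 bases held it at least once and 0.682% at least 3 times. The sites with a measured CpG in the hexamer are shown on the strand that reads TGCCGC, with the hexamer in capitals.
Grb10 chr11:11926123-11926128: gttggcgcgtgtTGCCGCgtgttggcccgt
Inpp5f chr7:135831773-135831778: agctgttatcttTGCCGCgatcctgatagt
Trappc9 chr15:72640223-72640228: gtagacgatcatTGCCGCggctctccggcc
Trappc9 chr15:72640372-72640377: agcttccagccgTGCCGCagtctgcagtct
Trappc9 chr15:72640474-72640479: agattgccgcatTGCCGCacctgcgcactg
Trappc9 chr15:72640482-72640487: caccgagcagatTGCCGCattgccgcacct
The CpG of the Grb10 site stood at 66.5% in KI and 73.2% in WT, with 30 reads in KI and 36 in WT over both strands. That of the Inpp5f site stood at 78.5% in KI and 74.7% in WT, with 26 and 25 reads. The 4 Trappc9 sites stood at 68.1% to 86.7% in KI and 71.4% to 94.4% in WT. The measured hexamers thus stood at intermediate to high methylation in KI. None of their cytosines was called lower or higher, where 1.09% of all shared CpGs were lower and 0.0474% higher. With so few cytosines the absence of calls does not set them apart. At the site from chr15:72640223 there were only 23 reads in KI and 15 in WT over both strands. Such depths, and those of the Grb10 and Inpp5f sites given above, leave little room for a call. All other hexamers of these regions had no measured CpG and are not described. A match of 6 letters is a description of the sequence and not a binding site.

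The main promoters, within 1 kb of the 5' end on each side, were nearly unmethylated in Inpp5f and Trappc9 in both libraries, low in Grb10 over the whole window and intermediate in Slc38a4. By both tests, adjusted over 16482 promoters, 0 of the 4 were lower and 0 higher in KI, where 7.09% of all promoters were lower and 1.13% higher. The Inpp5f promoter averaged 0.454% in KI and 0.358% in WT over 70 cytosines (change 0.0962 points, -1.59 to 1.78). The Trappc9 promoter averaged 0.327% in KI and 0% in WT over 6 cytosines, which is 1 cytosine above 0 in KI and none in WT. The 767 WT counts without methylation, summed over these cytosines at a mean of 128 reads each, would allow up to 0.391% if independent. Cytosines of 1 fragment share reads, so the level that these reads allow is higher than that. The Slc38a4 promoter window holds the same 14 cytosines as its control region, and against all promoters the adjusted p was 0.0862 by the stratified test and 0.201 by Fisher's exact test. None of the 4 genes had a shared CpG between 1 and 2 kb upstream.

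Grb10 has its outermost annotated start 1282 bases upstream of the start shared by 4 of its 12 transcripts, and the promoter window of the outermost start averaged 7.79% in KI and 10.5% in WT over 62 cytosines (change -2.68 points, -4.87 to -0.479). Within 500 bp of that start the level was higher, 27.7% in KI and 34.3% in WT over 10 cytosines (change -6.61 points), and this too did not pass either test. The island over the shared start, chr11:11936363-11938161, averaged 2.54% in KI and 3.22% in WT over 263 cytosines, and was called lower in KI (adjusted p = 7.11e-04 by the stratified test, 4.73e-04 by Fisher's exact test). That change of -0.687 points had an interval of -1.61 to 0.240, so the mean over cytosines was within its counting error while both tests on reads passed. A small island of Grb10 beside the control region, chr11:11926764-11926967, averaged 61.7% in KI and 66.7% in WT over 22 cytosines and passed the stratified test alone (adjusted p = 0.0462, against 0.0988 by Fisher's exact test).

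**Figure D3:**
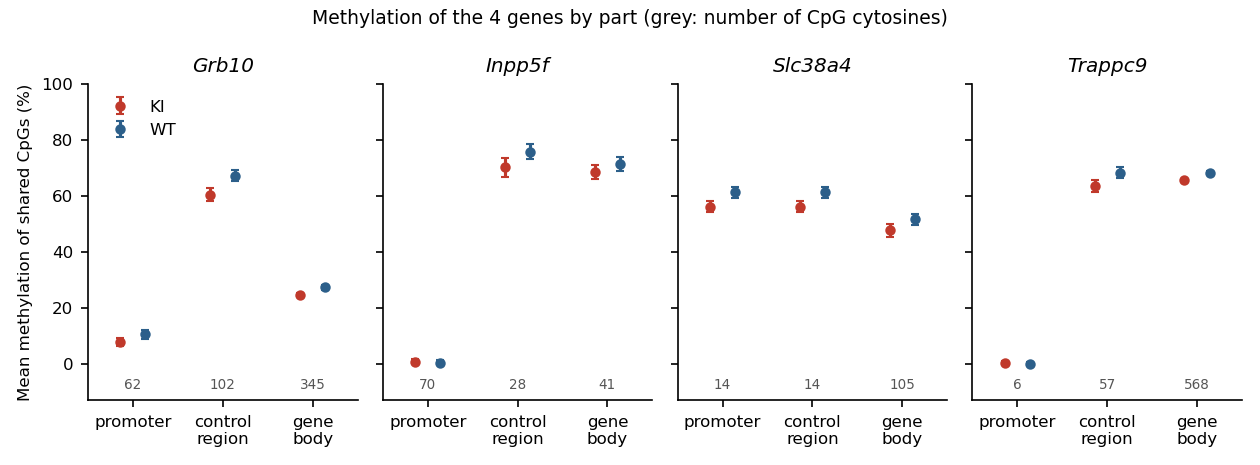
Mean methylation (%, y axis) of the shared CpGs of the main promoter, the control region and the gene body of each gene, for KI (red, left) and WT (blue, right). Bars are 95% intervals of counting error and grey numbers count CpG cytosines. The control regions lie between 56.3% and 70.3% in KI and between 61.4% and 76.0% in WT, while the Inpp5f and Trappc9 promoters lie under 1% in both. In Slc38a4 the promoter and the control region are the same 14 cytosines, and in the other genes the body includes the control region.

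Gene bodies, from 1 kb inside the 5' end to the end of the gene, were called lower in KI in 2 of the 4 genes and higher in 0, where 34.6% of 15919 gene bodies were called lower and 0.741% higher. Trappc9, the longest gene at 471.584 kb, averaged 65.6% in KI and 68.4% in WT over 568 cytosines (change -2.80 points, -3.62 to -1.97; adjusted p = 1.03e-21 by the stratified test and 8.66e-07 by Fisher's exact test). The Grb10 body averaged 24.6% in KI and 27.3% in WT over 345 cytosines (change -2.73 points, -3.86 to -1.59; adjusted p = 2.65e-04 by the stratified test and 5.41e-32 by Fisher's exact test). Weighted by reads, as Fisher's exact test on summed reads weighs them, that change was -6.56 points, and with reads thinned to equal numbers the adjusted p of Fisher's exact test was 0.0415. The 211 cytosines of Grb10 from 1 to 2 kb inside the 5' end, which belong to the promoter island, stood at 2.19% in KI and 2.57% in WT and hold down that mean. The Slc38a4 body averaged 47.8% in KI and 51.7% in WT over 105 cytosines (change -3.92 points, -7.01 to -0.822), and the Inpp5f body 68.6% in KI and 71.6% in WT over 41 (change -2.99 points, -6.61 to 0.636). Neither passed both tests, and both changes were smaller at 10 or more reads, -0.369 points in Slc38a4 and -0.381 in Inpp5f. With at least 20 reads in both libraries, the Grb10 body changed by -1.24 points and did not pass the stratified test (adjusted p = 0.0945, where Fisher's exact test gave 9.28e-19).

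Outside islands, the body of Trappc9 averaged 64.2% in KI and 66.9% in WT over 471 cytosines, so the reduction in this gene was not limited to the control region. Outside islands and CCGG sites it averaged 82.5% in KI and 85.5% in WT over 252. The Slc38a4 body outside islands averaged 47.9% in KI and 52.3% in WT over 99 cytosines. Inpp5f had 13 such cytosines, at 65.1% in KI and 62.2% in WT (change 2.86 points, -3.41 to 9.14), and all other measured cytosines of its body lie in the control region. In 1 kb windows with at least 5 shared CpGs, 35 of 48 windows of Trappc9 were lower in KI and 13 higher, with a median change of -1.77 points and a range from -23.5 to 10.8 points. The window with the reduction of 23.5 points, 453 kb from the 5' end, had 6 cytosines with 65 reads in KI and 79 in WT in all. Of the Slc38a4 windows, 8 of 10 were lower, and of the Grb10 windows 5 of 6, while of the 3 Inpp5f windows 1 was lower, 1 higher and 1 equal. The share of all 1 kb windows lower in KI was not counted, so these counts do not set the genes apart. Of all gene bodies, a larger unit than a window, 80.9% were lower in KI by any amount. The Grb10 window higher in KI lies at 13 kb, in the deeply read part of the control region, at 71.3% in KI and 68.3% in WT.

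**Figure D4:**
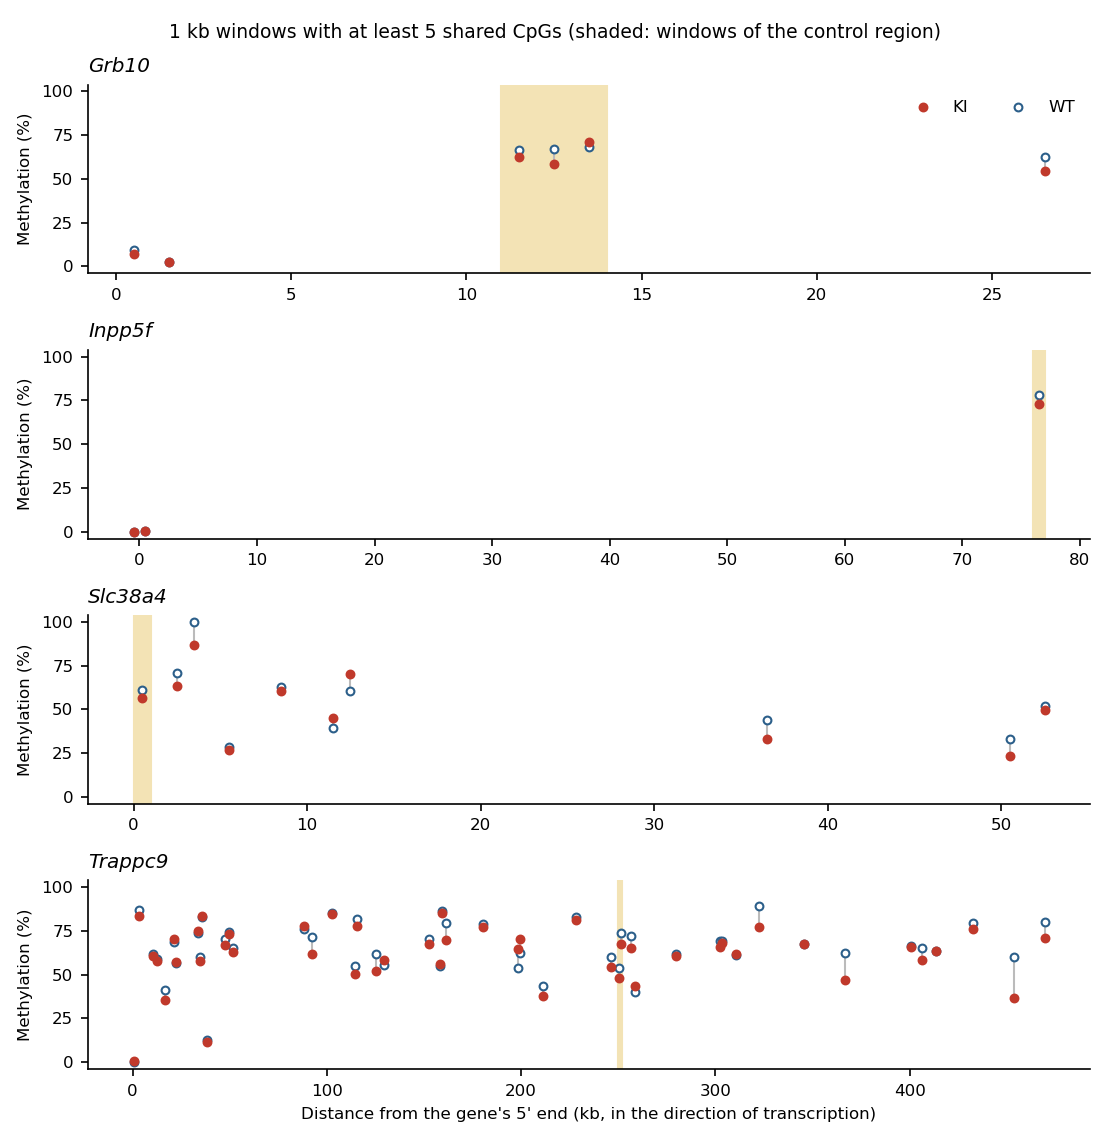
Methylation (%, y axis) of 1 kb windows with at least 5 shared CpGs along each gene by distance from its 5' end in kb (x axis), for KI (filled red) and WT (open blue), with grey lines joining the same window. Shading marks windows that hold cytosines of the control region. In Trappc9, 35 of 48 windows lie lower in KI. The share of all windows was not counted, and 80.9% of whole gene bodies, a larger unit, were lower by any amount. The starts of Inpp5f and Trappc9 lie near 0.

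Of the 1211 CpG cytosines, 581 were lower in KI by any amount, 361 higher and 269 equal. That is 48.0% lower and 29.8% higher, next to 45.9% and 24.6% of all shared CpGs. A CpG was called where Fisher's exact test, adjusted over all shared CpGs, gave an adjusted p under 0.05 and the difference exceeded 25 points. By this rule 2 of the 1211 cytosines were lower and 1 higher in KI, where 1.09% of all shared CpGs were lower and 0.0474% higher. Unadjusted, Fisher's exact test gave p under 0.05 for 62 lower and 8 higher cytosines of the 4 genes, or 5.12% and 0.661%, next to 9.05% and 1.18% of all shared CpGs. The 201 cytosines of the control regions held none of the calls.

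Both lower cytosines are the strands of 1 CpG in an intron near the end of Trappc9, at chr15:72421749 and 72421750, far from its control region. The top strand was methylated in 17 of 52 reads in KI and 47 of 61 in WT (32.7% in KI, 77.0% in WT, adjusted p = 4.15e-04 by Fisher's exact test). The bottom strand was methylated in 31 of 54 reads in KI and 51 of 59 in WT (57.4% in KI, 86.4% in WT, adjusted p = 0.0281 by Fisher's exact test). Since the strands are separate reads, this CpG was lower in both sets of reads. The cytosine higher in KI lies in a CCGG site of Slc38a4 at chr15:96834395, with 52 of 60 reads in KI and 30 of 51 in WT (86.7% in KI, 58.8% in WT, adjusted p = 0.0402 by Fisher's exact test), and it is lost when CCGG sites are left out. In Grb10 and Inpp5f the smallest adjusted p of a cytosine was 0.0623 and 0.121 by Fisher's exact test.

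Other imprinted genes with a methylated start were measured in the same libraries. Of 14 such promoters 11 had enough CpGs, and 4 of these, Plagl1, Nespas, Zrsr1 and Peg10, were lower in KI by both tests and 0 higher, with a median change of -0.879 points over the 11. Of all promoters 7.09% were lower, and of those at 50 to 80% in WT 21.9%. Among 10 measured gene bodies of this list 7 were lower and 0 higher, where 34.6% of all gene bodies were lower. The promoter of Plagl1, a zinc finger growth regulator, averaged 56.4% in KI and 71.1% in WT over 30 cytosines, a change of -14.8 points. The intervals of the 4 control regions reached at most -10.1 points, while that of the Plagl1 promoter ended at -11.6 points. As these intervals of counting error are too narrow, the gap between them does not set Plagl1 apart. Mcts2, Nnat and H19, with changes of 0.374, -0.879 and -0.360 points, did not pass. The 4 control regions thus lay within the range of the other imprinted starts, with changes between those of Plagl1 and Nnat. Whether any pair of them differs was not tested.

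**Figure D5:**
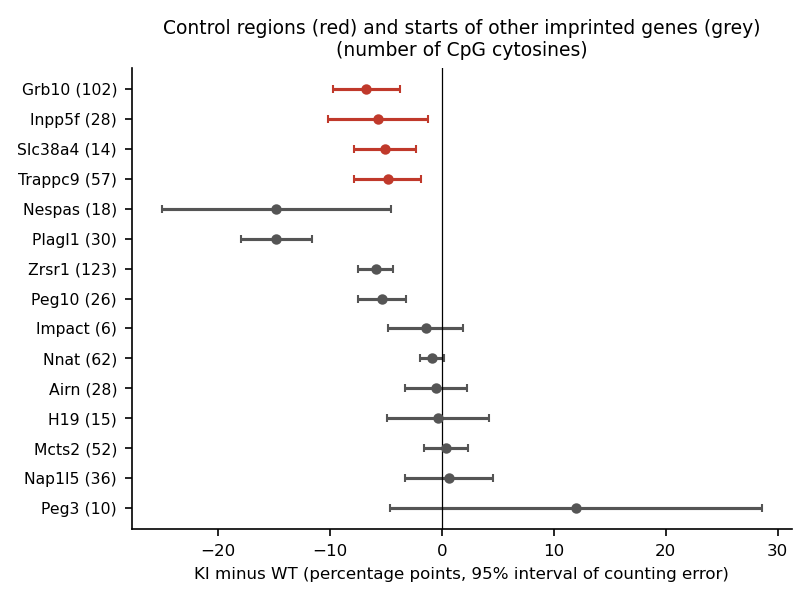
Change of mean methylation (KI minus WT, percentage points, x axis) of the 4 control regions (red) and of the promoters of 11 other imprinted genes (grey), with 95% intervals of counting error. Numbers after the names count CpG cytosines. The red intervals lie below 0 between -10.1 and -1.27 points, and the grey points range from -14.8 points at Nespas and Plagl1 to 12 points at Peg3.

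Of 11 neighbouring and partner genes, 8 had a measured promoter, and 0 of these were lower and 0 higher, with levels of at most 3.75% in KI and 4.25% in WT, where 7.09% of all promoters and 1.65% of those under 5% in WT were lower. The gene body of Kcnk9, a potassium channel gene imprinted in the brain that lies beside Trappc9, averaged 59.3% in KI and 66.6% in WT over 21 cytosines and was called lower, as was that of Slc38a1 beside Slc38a4, at 55.01% in KI and 56.7% in WT. The other 6 measured bodies, among them those of Cobl and Ddc beside Grb10, did not pass both tests. These are 2 of 8 bodies called lower, where 34.6% of all gene bodies were.

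Liver holds hepatocytes, blood and Kupffer cells and endothelium, and in pooled tissue a change of the cell mixture and a change within cells cannot be told apart. Of 10 hepatocyte gene promoters 5 were measured, and 4 of them, F2, Hnf4a, Fgb and Apob, were lower in KI. Those 4 stood at 26.0% to 45.2% in KI and 33.9% to 56.7% in WT, while Tat, at 0% in KI and 2.78% in WT, did not pass. Of all promoters 7.09% were lower and 1.13% higher, and of those at 50 to 80% in WT 21.9% were lower. The share at the lower WT levels of F2, Fgb and Apob was not counted. Of 3 measured blood and Kupffer cell promoters, at 48.5% to 72.2% in KI and 65.3% to 74.8% in WT, 1 was lower, and of 2 endothelial promoters, at 63.6% and 83.3% in KI and 66.0% and 76.7% in WT, 0 were. Gene bodies of these lists were lower in 3 of 5 hepatocyte genes (median change -4.26 points), 2 of 3 blood and Kupffer cell genes (-8.12 points) and 4 of 4 endothelial genes (-3.20 points), and higher in 0, where 34.6% of all gene bodies were lower. Their part in the changes of the 4 genes was not tested.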

How the data were processed

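RRBS was performed on liver DNA of KI and WT mice, 1 library of 3 pooled males each. Alignment by the authors used Bismark (submitters' processing notes: version 0.12.20) against mm9, keeping unique hits. In the deposited tables, coverage holds a read count for each CpG cytosine, and methylation is given as the percent of these counts that stayed C. Methylated reads were recovered as their product, whole within the rounding at 100.0% of the cytosines. Trimming and duplicate handling are not given in the sources used here. Strand and CCGG sites were read from the mm9 sequence.

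Only cytosines covered 5 times or more in KI and in WT entered, with equal weight. A change is KI minus WT, in points. Regions with at least 5 such cytosines were tested by a Cochran-Mantel-Haenszel test and by Fisher's exact test on summed counts, fitted on all regions of a class, and single cytosines by Fisher's exact test. The members, gene lists and control region rules were chosen with earlier results of these data known. Named are the 4 genes, their islands and called cytosines, and fixed lists of neighbours, other imprinted genes and cell type markers. The division by MspI fragments, by strand and at 20 reads was described after the values were seen. Other alternatives were 10 reads, strands summed, CCGG left out, a chi-square test, thinned reads, weighting by reads, averaged counts, a 500 bp promoter and stricter islands (500 bases, 0.55 and 0.65). Procedures were tested on simulated data. Gene names and positions came from GENCODE for mm9. Scripts ran in Python 3.11.15 (scipy 1.17.1, numpy 2.4.6, numba 0.67.0, pandas 2.3.3), with figures by matplotlib 3.10.9.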

Additional observations from a re-analysis of the deposited data

How the results depend on the processing

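Over 14 results and 101 alternatives, 89 values kept their direction and their side of the threshold, but several of these moved by over 1.5 times. Weighted by reads, the control regions of Grb10, Inpp5f and Slc38a4 changed by -1.98, -1.73 and -3.22 points, and the bodies of Grb10, Slc38a4 and Trappc9 by -6.56, -1.67 and -1.76 points. At 10 or more reads, the Inpp5f control region changed by -0.588 points and the bodies of Inpp5f and Slc38a4 by -0.381 and -0.369 points, and at 20 or more the Inpp5f body by -0.494 points. Both strands summed gave -9.80 points for the Inpp5f control region, -3.22 for that of Slc38a4 and -1.07 for the Slc38a4 body. The Grb10 promoter changed by -6.61 points within 500 bp. At 20 or more reads in both libraries the Grb10 control region changed by 1.97 points, the reverse of its main direction, and the Grb10 gene body, at -1.24 points, did not pass both tests. The Inpp5f promoter, near 0, changed by -0.107 points at 10 or more reads and by -0.0842 points within 500 bp. After summing both strands, the Trappc9 control region (-7.28 points) passed both tests, as did the Slc38a4 gene body without CCGG sites (-5.35 points) and the Slc38a4 control region with reads thinned to equal numbers (-5.93 points). With counts averaged over CpGs, the Grb10 body (-2.73 points) and the Trappc9 body (-2.80 points) did not pass, as that test rests on far fewer reads. Called cytosines higher in KI numbered 0 without CCGG sites, and thinned reads gave 1 lower and 0 higher. Other causes were not tested. No paired analysis was possible because each genotype is 1 library. Single fragments of the control regions were read by as few as 6 reads, and 7.35% of the CpG cytosines of the 4 genes were measured, so most of their sequence is not described.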
